A study of Mus musculus with 9 samples.

Results

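The genes described here are 38 mouse genes for coagulation and complement factors, proteins that the liver releases into blood to clot it, to dissolve clots and to opsonise or lyse microbes. They were taken by name and were found in the table by Ensembl identifier and symbol. All 38 were present among 56691 genes, and all 38 passed the filter on low counts that left 18379 genes to test. By role they were 13 genes for fibrinogen, coagulation factors and the kallikrein-kinin proteins, 7 for anticoagulants and fibrinolysis, 7 for complement recognition and its proteases, 8 for C3, C4 and the terminal components, and 3 for complement regulators and vitronectin.

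RNA was sequenced from primary mouse hepatocytes in culture, with 3 libraries each from cells labelled 4-octyl itaconate (4OI, an ester of the metabolite itaconate that enters cells), Bobcat339 (an inhibitor of the TET enzymes, which oxidise methylated cytosine) and DMSO (the solvent control). In every group cells were left 4 h to attach and then 24 h in new medium before RNA was taken with Trizol, and the labels give neither dose nor length of treatment. They also mention Remodelin hydrobromide as an agent added to some cells without saying which. All 4OI titles share 1 hepatocyte number, while DMSO titles have 3, and separate animals or cultures are not stated for any group, so each p measures the spread between these samples alone, which may be technical. The study's methods describe hepatocytes taken after partial hepatectomy and treated with Bobcat339, without saying whether these libraries come from such mice, and do not describe 4OI cultures.

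Coagulation runs as a cascade of proteases, made mostly by hepatocytes as inactive precursors, that ends with thrombin (gene F2) cutting fibrinogen (Fga, Fgb, Fgg) into fibrin. Antithrombin, protein C and protein S hold it back, and plasmin dissolves the clot. Complement is a second cascade that converges on C3 and ends with the membrane attack complex, and hepatocytes are the main source of most of its plasma proteins, with transcription known to depend on liver-enriched factors such as HNF4 and those of the C/EBP family and, in the acute phase, on STAT3.

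Libraries held 67434312 to 83902788 deposited counts, where about 4 counts were assumed to stand for 1 read pair. The lowest value of any of the 38 genes was 27 counts, for F11 in a 4OI library, so all were above the floor of 12 counts (3 read pairs on that assumption) in every library. The label of hepatocytes was checked against marker lists. Summed over 12 other secreted hepatocyte proteins such as albumin (the hepatocyte reference list), the level was 2896 to 3117 CPM (counts scaled to a common library total, with TMM factors between libraries) in 4OI, 45738 to 47641 CPM in Bobcat339 and 47322 to 51026 CPM in DMSO libraries. In 4OI libraries that sum was below the sums of 14 macrophage markers (6253 to 6482 CPM) and of 12 endothelial markers (4434 to 4611 CPM). The macrophage sum was 319 to 357 CPM in Bobcat339 and 697 to 763 CPM in DMSO libraries, and the endothelial sum 139 to 163 CPM in Bobcat339 and 158 to 185 CPM in DMSO libraries. Bobcat339 replicate 1 stood apart in cholangiocyte and intestinal markers, with 340 CPM against 203 and 209 CPM in the other Bobcat339 libraries, 15.5 to 28.8 CPM in 4OI and 465 to 493 CPM in DMSO libraries, and replicate 3 of Bobcat339 and of DMSO differed from the others of its group in a shared way, given below.

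Promoter sequence was read from RefSeq (build GRCm38.p6, 250 bases before to 50 after the start of transcription), which matched 30 of the 38 genes with 32 promoters. The stretches below show, 5′ to 3′ on the strand of the gene and ending at the base before the start, where letters of liver transcription factor motifs stand. With libraries scaled to their totals, Fga, Fgb and C3 fell with 4OI and Pros1 rose. With libraries scaled to the hepatocyte reference list, Fga and Fgb were higher, as was Pros1, and C3 was not called. Capitals mark a match, on either strand, to C/EBP (TTGCNNAA) or STAT3 (TTCCNGGAA), and no marked matches overlap.
Fga (fibrinogen alpha chain; chr3:83025903-83026152, plus strand; STAT3 and C/EBP letters in that order): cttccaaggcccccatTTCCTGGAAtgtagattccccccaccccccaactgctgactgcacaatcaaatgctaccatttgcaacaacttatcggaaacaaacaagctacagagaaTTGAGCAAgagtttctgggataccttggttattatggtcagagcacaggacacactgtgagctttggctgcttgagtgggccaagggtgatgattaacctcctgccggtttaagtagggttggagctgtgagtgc
Fgb (fibrinogen beta chain; chr3:83049864-83049963, minus strand; C/EBP letters): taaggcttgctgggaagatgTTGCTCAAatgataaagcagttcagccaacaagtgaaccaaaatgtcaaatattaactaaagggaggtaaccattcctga
C3 (complement C3; chr17:57228137-57228236, minus strand; C/EBP letters): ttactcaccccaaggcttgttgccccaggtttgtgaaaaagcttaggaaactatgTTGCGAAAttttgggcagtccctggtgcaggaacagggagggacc
Pros1 (protein S; chr16:62854187-62854306, plus strand; STAT3 letters): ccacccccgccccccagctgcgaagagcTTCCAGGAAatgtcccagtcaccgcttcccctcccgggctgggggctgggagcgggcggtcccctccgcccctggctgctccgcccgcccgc

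C/EBP letters stood in 11 of the 32 member promoters (34.4%), against 10.8% of 32851 mouse promoters of the same length. Fga, Fgb and C3 were among them. STAT3 letters stood in 2 (6.25%, against 1.15%), Fga and Pros1. FOXA letters (TGTTTAC) were in 2 (6.25%, against 3.65%), HNF4 letters (CAAAGTCCA) in 0 (against 0.475%), NF-kB letters (GGGANTTTC) in 1 (3.13%, against 1.11%) and NRF2 letters (TGACNNNGC) in 2 (6.25%, against 12.4%). A match is a description of letters, and a window without one says only that these letters are not in it.

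4OI was set against DMSO to see which genes respond to the ester. Of the 38 genes 37 fell and 1, Pros1, rose with 4OI, but when libraries were scaled to the hepatocyte reference list in place of their totals 18 were higher and 4 lower. With the reference scaling 16268 of 18367 genes tested were higher and 471 lower, the background for each such count of 4OI against DMSO below. With scaling to library totals 30.4% of all genes tested were lower and 33.3% higher. The median log2 fold change of the 38 was -3.71, against 0.08 over all genes tested, and 36 of the 37 genes that fell did so at least 2-fold, 30 at least 8-fold and 14 at least 16-fold. The reference scaling moved the median of all genes by 4.04 on the log2 scale and left the median of the 38 at 0.33. In bulk RNA, fewer cells of a type and less RNA per cell cannot be told apart, and the part of the higher macrophage and endothelial marker sums in 4OI libraries was not tested.

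As a share of all counts, the 38 genes together held 0.183%, 0.182% and 0.197% in the 4OI libraries, 1.90%, 1.79% and 1.75% in the Bobcat339 libraries, and 1.99%, 2.02% and 1.88% in the DMSO libraries. The 4OI libraries lay far below both other groups. These overlapped with each other, but not when mitochondrial genes were left out, as given below. The mean was 0.187 ± 0.00855% in 4OI and 1.96 ± 0.0767% in DMSO (SD, n = 3 each, exact permutation, two-sided p = 0.1, the smallest that 3 against 3 allows). Roles fell unequally in summed share, from 6.10-fold lower for anticoagulants and fibrinolysis, where Pros1 is counted, to 14.9-fold lower for C3, C4 and the terminal components.

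The 12 reference genes fell as well, by a median of 3.87 on the log2 scale. For every 1000 counts of the reference list the 38 genes held 579, 597 and 604 counts in 4OI libraries, 423, 390 and 394 in Bobcat339 libraries, and 398, 404 and 401 in DMSO libraries. Relative to these hepatocyte genes the sum of the 38 was thus higher in each 4OI library than in any other library, and Bobcat339 and DMSO overlapped. The sum includes Pros1, and 16 of the 38 genes were not called with the reference scaling of 4OI against DMSO.

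**Figure D1:**
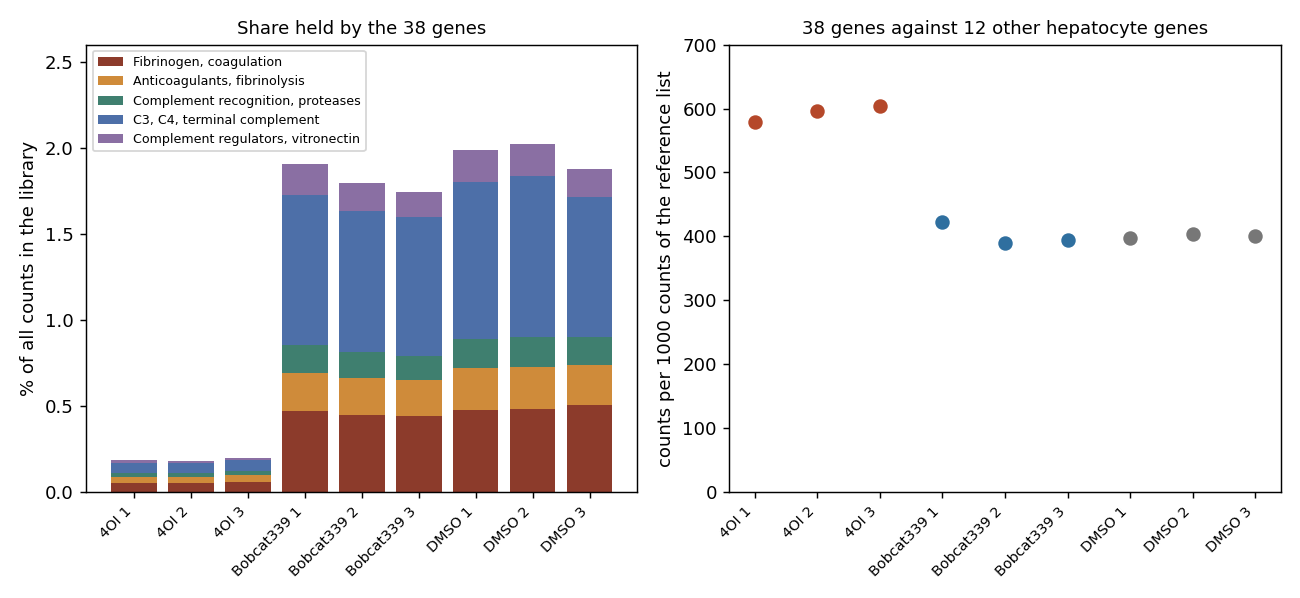
Left, percent of all counts in each library held by the 38 genes, stacked by role, which is below 0.2% in the 4OI libraries and between 1.7% and 2.1% in the others. Right, counts in the 38 genes per 1000 counts of 12 other hepatocyte genes in the same library, which is 579 to 604 in 4OI and 390 to 423 in Bobcat339 and DMSO libraries.

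Among the coagulation factors all 13 fell with 4OI, with a median log2 fold change of -3.64, whereas with the reference scaling 6 were higher and 1 lower. F5, the cofactor that speeds thrombin formation, was at 2.58, 2.83 and 3.88 CPM in 4OI, 81.9, 87.8 and 102 CPM in Bobcat339, and 88.0, 88.6 and 93.0 CPM in DMSO libraries. Every 4OI value lay far below both other groups, and F5 had the largest fall of the 38 (28.9-fold lower, log2 -4.85, SE 0.16, adjusted p = 9.7e-10). F11, a protease of the contact pathway, was at 0.339, 0.483 and 1.37 CPM in 4OI, 14.9, 14.2 and 18.0 CPM in Bobcat339, and 16.8, 19.1 and 21.6 CPM in DMSO libraries. Against DMSO its fall (log2 -4.69, SE 0.41) had the widest error of the set, at its low 4OI level. F2, the gene of thrombin, was at 50.6, 49.8 and 50.9 CPM in 4OI, 883, 823 and 732 CPM in Bobcat339, and 923, 944 and 769 CPM in DMSO libraries. It stood 17.4-fold lower than in DMSO (log2 -4.12, SE 0.11). F12 and Kng1 (kininogen), which start the contact pathway, were both 17.8-fold lower, and the vitamin K-dependent F7, F9 and F10 were 11.4-fold, 13.1-fold and 12.4-fold lower.

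Fibrinogen, prekallikrein and factor XIII B fell least in that role. Fgb was at 139, 137 and 151 CPM in 4OI, 1061, 965 and 1050 CPM in Bobcat339, and 915, 958 and 1222 CPM in DMSO libraries, with no 4OI value near the others (7.26-fold lower, log2 -2.86, SE 0.11, adjusted p = 3.9e-09). Fga fell 9.42-fold and Fgg 5.98-fold, although the 3 chains are assembled in equal numbers into fibrinogen. Klkb1 (prekallikrein) fell 5.29-fold and F13b 8.92-fold. All 5 of these genes lay above 0 with scaling to the reference list, at log2 fold changes of 0.80 for Fga, 1.18 for Fgb, 1.46 for Fgg, 1.64 for Klkb1 and 0.86 for F13b. Exons of Gm45753, annotated on the same strand, cover 43.2% of Klkb1 exon length, which limits the level of Klkb1. Mean counts given to Gm45753 were 0 in 4OI, 12.3 in Bobcat339 and 45.7 in DMSO libraries.

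Anticoagulants and fibrinolysis had 6 genes lower and 1 higher with 4OI, and 1 lower and 2 higher with the reference scaling. Pros1, the gene of protein S, the cofactor of protein C, was at 228, 242 and 249 CPM in 4OI, 18.1, 21.6 and 19.9 CPM in Bobcat339, and 20.1, 19.1 and 22.8 CPM in DMSO libraries. Its 4OI values lay far above every other library, and it was 11.6-fold higher than in DMSO (log2 3.53, SE 0.10, adjusted p = 4.4e-10, and 7.58 with the reference scaling). Protein S is also known from endothelial cells and macrophages, whose markers were higher in the same libraries, and their part in the level of Pros1 was not tested. Per kilobase of exon, Pros1 had the third highest level of the 38 in 4OI libraries (58.6 CPM per kb), whereas in DMSO it was at 5.06 CPM per kb.

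The enzyme that Pros1 assists fell. Proc (protein C) was 14.8-fold lower with 4OI, at 7.12, 7.79 and 7.64 CPM in 4OI and 115, 119 and 99.7 CPM in DMSO libraries. Serpinc1, the gene of antithrombin, was at 47.7, 49.5 and 49.98 CPM in 4OI, 776, 669 and 614 CPM in Bobcat339, and 757, 766 and 666 CPM in DMSO libraries (14.9-fold lower than in DMSO, log2 -3.89, SE 0.11). Its exons overlap those of Zbtb37 on the opposite strand over 34.4% of their length, and whether counting used the strand is not given in the sources used here. Plg (plasminogen) was at 31.0, 30.4 and 35.5 CPM in 4OI, 505, 471 and 452 CPM in Bobcat339, and 511, 545 and 483 CPM in DMSO libraries, 15.9-fold lower than in DMSO. Serpinf2, the inhibitor of plasmin, fell 16.7-fold and Serpind1 (heparin cofactor II) 8.24-fold. Cpb2, whose enzyme protects fibrin from plasmin, fell most of this role, with 34.6, 31.4 and 34.8 CPM in 4OI, 794, 850 and 824 CPM in Bobcat339, and 863, 854 and 922 CPM in DMSO libraries (26.2-fold lower than in DMSO, log2 -4.71, SE 0.08, adjusted p = 5.5e-11).

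**Figure D2:**
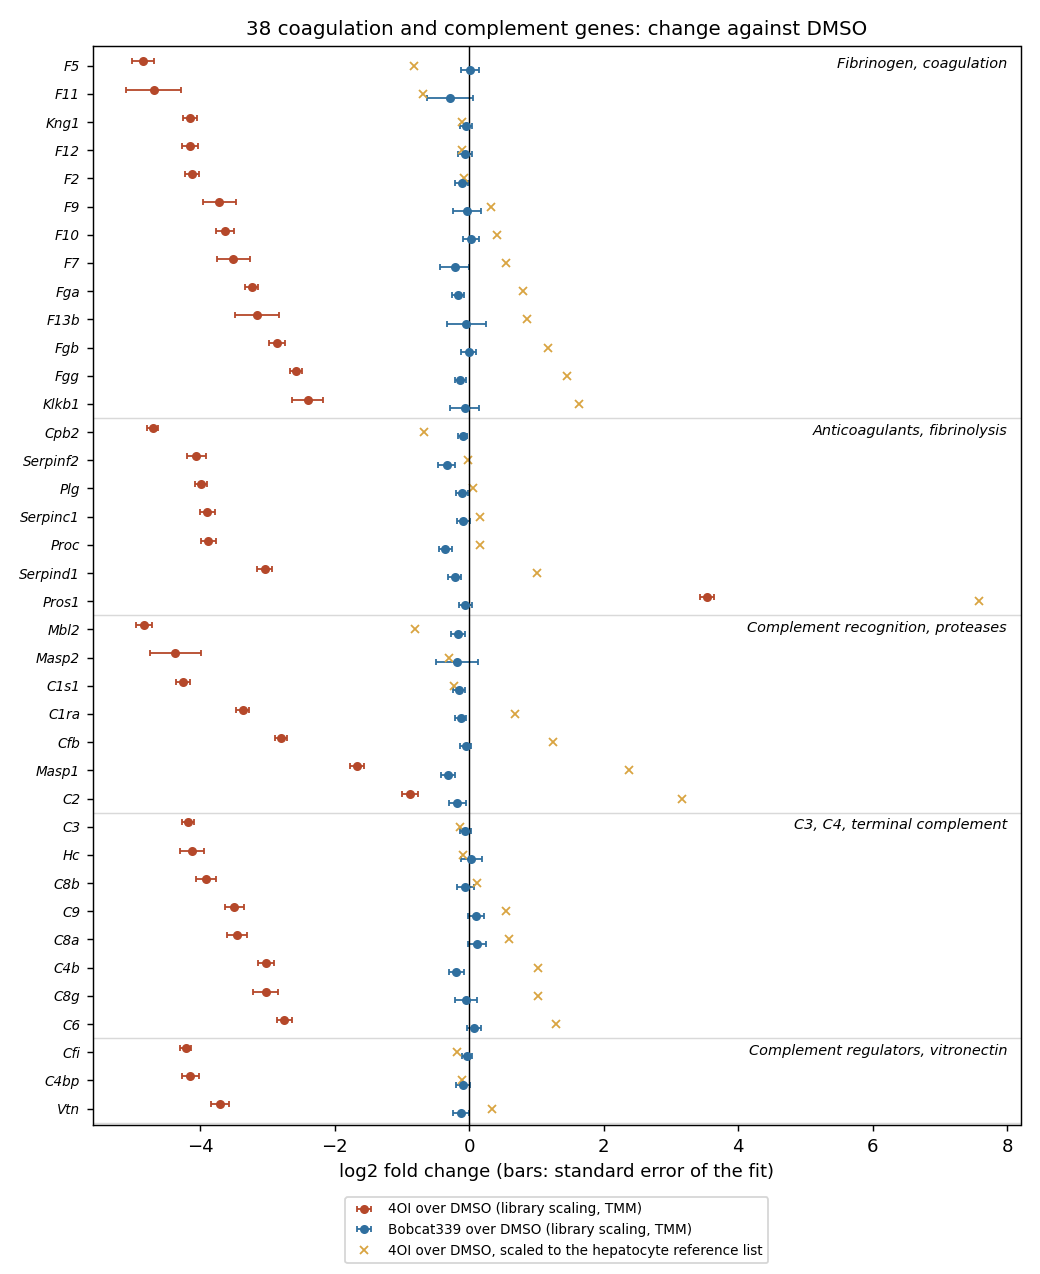
Log2 fold change over DMSO for the 38 genes, ordered by role, with 4OI in red and Bobcat339 in blue (bars, standard error of the fit), and 4OI scaled to the hepatocyte reference list as yellow crosses. With library scaling 4OI values lie below 0 for 37 genes and at 3.53 for Pros1, with reference scaling they spread from -0.82 to 7.58, and Bobcat339 values lie between -0.35 and 0.11.

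Complement recognition genes and their proteases all fell with 4OI, over the widest range of any role among the genes that fell, but with the reference scaling 4 were higher and 2 lower. Mbl2 (mannose-binding lectin), which binds microbial sugars, was at 5.77, 4.39 and 5.30 CPM in 4OI, 141, 133 and 120 CPM in Bobcat339, and 147, 141 and 155 CPM in DMSO libraries (28.6-fold lower than in DMSO, log2 -4.84, SE 0.12). C1s1, a protease of C1, was at 10.2, 10.0 and 12.4 CPM in 4OI and 205, 205 and 215 CPM in DMSO libraries (19.2-fold lower), while its partner C1ra was 10.3-fold lower. Both have near-identical copies in the mouse genome, C1s2 and C1rb, and how reads were shared with those is not given. Masp2, a protease of the lectin pathway, was at 2.93, 2.12 and 0.729 CPM in 4OI, 38.6, 34.9 and 31.4 CPM in Bobcat339, and 37.2, 44.8 and 36.9 CPM in DMSO libraries (20.7-fold lower than in DMSO, log2 -4.37, SE 0.38). Its level is uncertain, since 54.9% of its exon length overlaps the much more abundant Tardbp on the opposite strand.

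C2 and Masp1 fell least. C2, the protease that joins C4b in the C3 convertase of the classical and lectin pathways, was at 21.0, 20.9 and 24.5 CPM in 4OI, 40.3, 34.8 and 33.4 CPM in Bobcat339, and 43.0, 44.5 and 35.0 CPM in DMSO libraries, 1.85-fold lower than in DMSO (log2 -0.88, SE 0.12, adjusted p = 8.2e-05). Masp1 was at 12.1, 14.9 and 15.4 CPM in 4OI and 43.8, 47.0 and 44.0 CPM in DMSO libraries (3.18-fold lower, log2 -1.67, SE 0.10). In both genes the 4OI libraries lay below all others, by a smaller gap than elsewhere, and with the reference scaling they were higher, at log2 fold changes of 3.16 and 2.38. Macrophages are also known to make C2, and the part of their higher markers in 4OI libraries was not tested. Cfb, the homologue of C2 in the alternative pathway, lies beside it in the genome and was at 152, 156 and 165 CPM in 4OI, 1156, 1048 and 977 CPM in Bobcat339, and 1130, 1143 and 1017 CPM in DMSO libraries (6.95-fold lower than in DMSO, log2 -2.80, SE 0.09, and 1.25 with the reference scaling).

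C3 and the terminal components all fell with 4OI, with a median log2 fold change of -3.47, although with the reference scaling 5 were higher and 0 lower. C3, on which all complement pathways converge, was at 402, 395 and 426 CPM in 4OI, 7570, 7029 and 6790 CPM in Bobcat339, and 7684, 7972 and 6609 CPM in DMSO libraries (18.2-fold lower than in DMSO, log2 -4.19, SE 0.09, adjusted p = 1.4e-10). Per kilobase of exon it had the highest level of the 38 in every group, and it made up 22.9 ± 0.283% of their summed CPM in 4OI, 37.9 ± 0.183% in Bobcat339 and 37.3 ± 2.11% in DMSO (SD, n = 3 each). Hc, the gene of C5, was at 16.3, 13.6 and 15.1 CPM in 4OI, 229, 246 and 327 CPM in Bobcat339, and 232, 233 and 321 CPM in DMSO libraries, 17.4-fold lower than in DMSO. The pore-forming C8a, C8b, C8g and C9 fell 10.9-fold, 15.1-fold, 8.14-fold and 11.3-fold, and C6 fell 6.73-fold. C4b fell 8.15-fold, with reads that could be shared with its close copy C4a.

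The 3 regulators fell by 13.1-fold to 18.6-fold with 4OI, and with the reference scaling 1 was higher and 0 lower. Vtn (vitronectin), which blocks insertion of the attack complex into membranes, was at 92.9, 93.4 and 107 CPM in 4OI, 1352, 1157 and 1014 CPM in Bobcat339, and 1351, 1390 and 1100 CPM in DMSO libraries (13.1-fold lower than in DMSO, log2 -3.71, SE 0.14). Cfi, the protease that cuts C3b and C4b, was at 15.2, 16.1 and 16.0 CPM in 4OI, 281, 294 and 288 CPM in Bobcat339, and 277, 291 and 313 CPM in DMSO libraries, with the largest fall of the role (18.6-fold lower than in DMSO). C4bp, a cofactor of that protease, fell 17.8-fold. With the reference scaling the log2 fold changes of the 3 were 0.34 for Vtn, -0.18 for Cfi and -0.11 for C4bp.

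**Figure D3:**
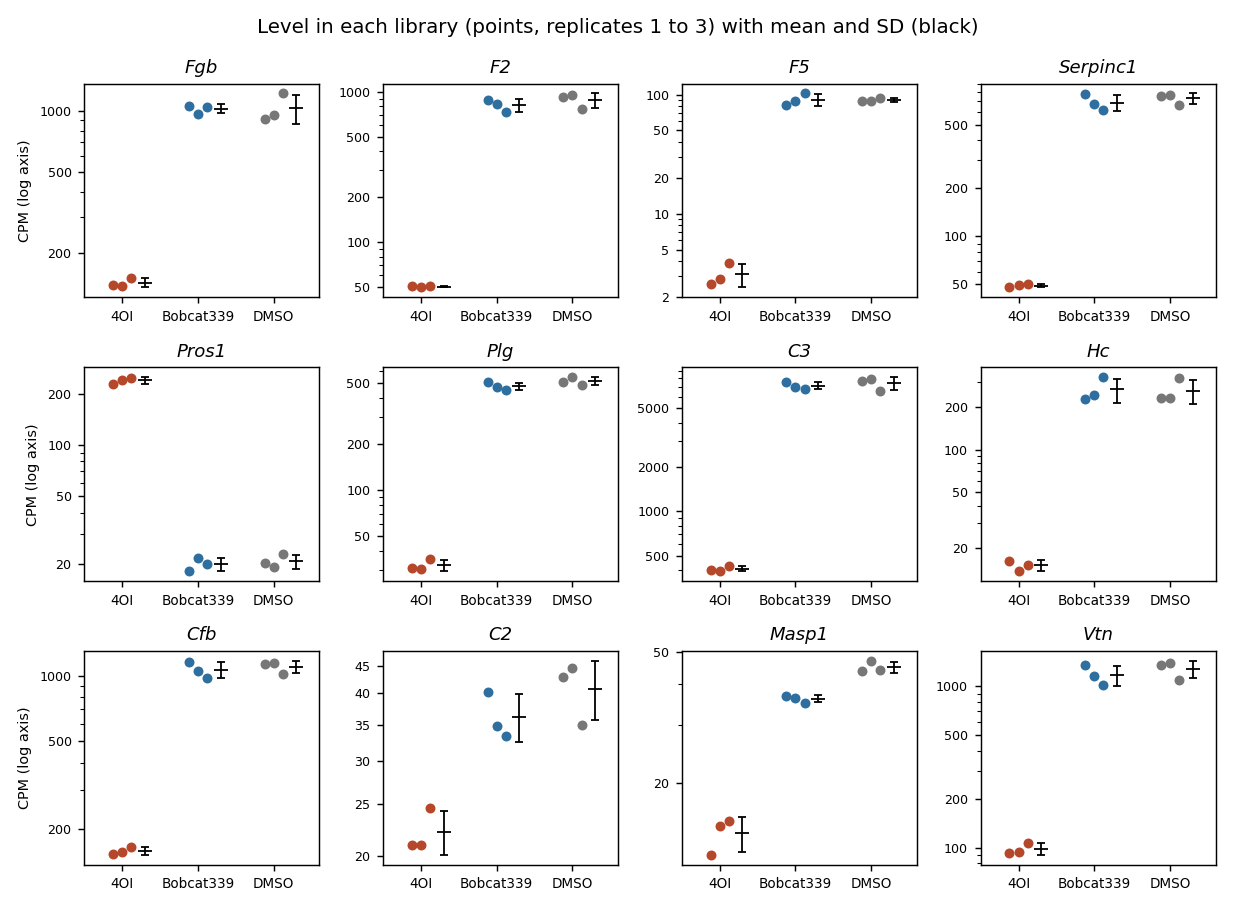
Level (CPM after TMM scaling, log axis) of 12 of the genes in each library, as points by group, with the group mean and SD in black. The 4OI points lie below the Bobcat339 and DMSO points for 11 genes and above them for Pros1 (library scaling; with the reference scaling Fgb, C2, Cfb, Masp1 and Vtn are called higher), and Bobcat339 and DMSO overlap in all but Masp1.

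Ratios between partner genes within a library do not depend on scaling between libraries. These 11 ratios were chosen after their values were seen, and with 3 libraries a group none can pass after adjustment (lowest adjusted p = 0.314 by exact permutation over both treatments). Exons of Gm20547, annotated on the same strand and given 0 counts, cover 42.8% of C2 and 79.5% of Cfb exon length, which limits the levels of both. C2 stood to Cfb as 0.138, 0.134 and 0.149 in 4OI, 0.0349, 0.0332 and 0.0342 in Bobcat339, and 0.0380, 0.0390 and 0.0344 in DMSO libraries, 3.77-fold higher in 4OI than in DMSO. Cfb stood to C3 as 0.379, 0.394 and 0.388 in 4OI, against 0.147, 0.143 and 0.154 in DMSO libraries. C1ra stood to C1s1 as 1.16, 1.02 and 0.971 in 4OI, against 0.578, 0.597 and 0.515 in DMSO libraries. Each of these had every 4OI library above every DMSO library (exact permutation, two-sided p = 0.1, the smallest possible). The ratio of Hc to C3 overlapped between 4OI (0.0345 to 0.0404) and DMSO (0.0292 to 0.0486).

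Bobcat339 was set against DMSO to see which genes respond to TET inhibition. Of the 38 genes 2 fell and 0 rose, both by less than 1.3-fold, and neither was called with the reference scaling. Among all genes tested 9.06% were lower and 11.6% higher, so the share of members called lower (5.26%) was under this background. The median log2 fold change of the 38 was -0.09, with a range from -0.35 to 0.11, against a median of -0.01 over all genes tested. At an unadjusted p under 0.05 there were 4 genes, all lower, and DESeq2 called 4.

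Proc (protein C) had 96.8, 85.7 and 77.9 CPM in Bobcat339 and 115, 119 and 99.7 CPM in DMSO libraries, without overlap (log2 -0.35, SE 0.10, adjusted p = 0.0285). Masp1 had 36.9, 36.3 and 35.1 CPM in Bobcat339 and 43.8, 47.0 and 44.0 CPM in DMSO libraries, also without overlap (log2 -0.31, SE 0.10, adjusted p = 0.0492). Libraries did not overlap for some uncalled members either, such as Fga, Cpb2 and Serpinf2, so a lack of overlap does not set Proc and Masp1 apart. The calls of Proc and Masp1 were both lost without DMSO replicate 1 (adjusted p = 0.106 for Proc and 0.111 for Masp1), without DMSO replicate 2 (0.117 and 0.164), without Bobcat339 replicate 2 (0.0995 and 0.133) or without Bobcat339 replicate 3 (0.0951 and 0.126). Masp1 was also lost without Bobcat339 replicate 1 (0.0726), DMSO replicate 3 (0.0681) or 4OI replicate 2 (0.0678), each of which left Proc called. Without a filter on low counts both were lost (adjusted p = 0.0575 for Proc and 0.0803 for Masp1), with only the 6 libraries of this comparison Proc was lost (0.0576), and with the replicate number as a block Masp1 was lost (0.051).

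For the other 36 genes the data give intervals rather than calls. The 95% interval of the log2 fold change lay within 1 of 0, that is, inside a 2-fold change either way, for 37 of the 38 genes, and within 0.5 for 29. The exception was F11 (-1.03 to 0.46). For C3 the interval was -0.24 to 0.12, for Fgb -0.25 to 0.23, for F2 -0.32 to 0.10, for Serpinc1 -0.30 to 0.12 and for Vtn -0.40 to 0.15. Cfb had one of -0.23 to 0.13, Plg -0.29 to 0.08 and Hc -0.32 to 0.38. Serpinf2, at 126, 116 and 99.7 CPM in Bobcat339 and 145, 155 and 131 CPM in DMSO libraries, missed the threshold (log2 -0.34, SE 0.13, adjusted p = 0.0924) and was called by DESeq2 (0.0290). In total share the 38 genes held 1.81 ± 0.0811% of counts in Bobcat339 and 1.96 ± 0.0767% in DMSO (SD, n = 3 each, exact permutation, two-sided p = 0.2).

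Replicates within these groups spread in a shared way. Replicate 3 was the lowest of its group in both Bobcat339 and DMSO for 16 of the 38 genes (42.1%), against 23.0% of all genes tested, and the highest in both for 10 (26.3%), against 24.5%. F9 was at 46.3, 52.1 and 67.1 CPM in Bobcat339 and 47.8, 47.0 and 74.7 CPM in DMSO libraries, highest in replicate 3 of both. Beside F9, the 10 were F5, F11, F13b, Klkb1, Fgg, Hc, C6, C8a and C9, and the 16 included F2, Serpinc1, Plg, Proc, C3, C4b, Cfb and Vtn. Mitochondrial RNA was also highest in replicate 3, at 3.12% against 2.36% and 2.66% of counts in Bobcat339, and 5.59% against 4.47% and 4.43% in DMSO libraries. The part of either in the spread was not tested, and no label says what the replicate number stands for. Without replicate 3 of Bobcat339, 0 of the 38 genes were called in this comparison, and without replicate 3 of DMSO only Proc was.

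**Figure D4:**
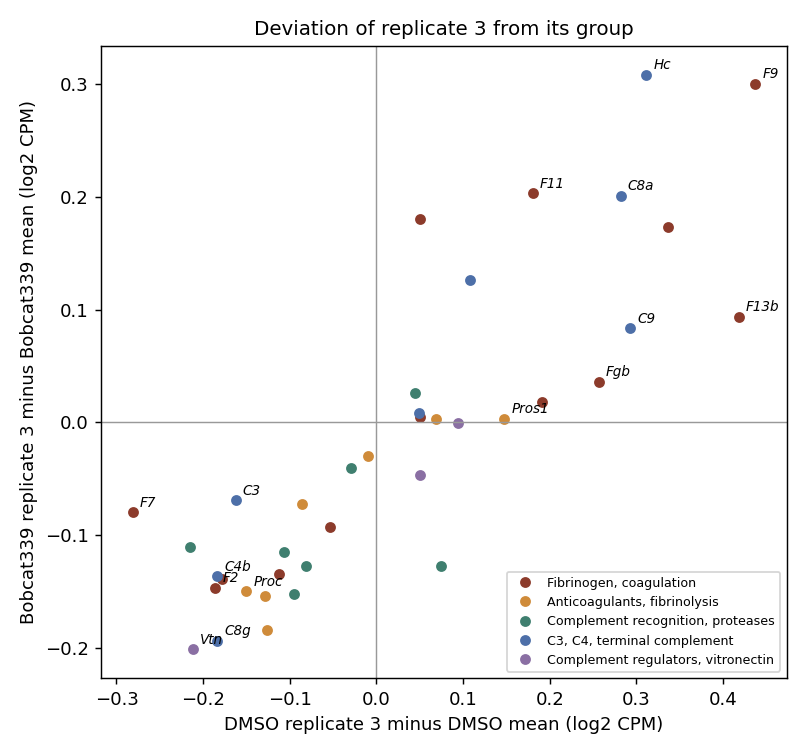
Deviation of replicate 3 from the mean of its group in log2 CPM, Bobcat339 on the y axis and DMSO on the x axis, 1 point for each of the 38 genes, coloured by role. Genes such as Hc and F9 lie high in replicate 3 of both groups (F9 at 0.30 in Bobcat339 and 0.44 in DMSO), and genes such as Vtn and F2 lie low in both (Vtn at -0.20 in Bobcat339 and -0.21 in DMSO).

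Set directly against Bobcat339, 4OI gave the same counts as against DMSO, 37 genes lower and 1 higher, which with the reference scaling became 20 higher and 5 lower. With the reference scaling 16345 of 18367 genes tested were higher and 428 lower. With library scaling 31.3% of all genes tested were lower and 30.9% higher. The median log2 fold change of the 38 was -3.63, against -0.00083 over all genes, and scaling by library size alone moved the median of all genes by 0.12. F5 was 29.2-fold lower in 4OI than in Bobcat339, Mbl2 25.4-fold, Cpb2 24.5-fold, F11 21.2-fold and Masp2 and Cfi both 18.2-fold. C2 was 1.63-fold and Masp1 2.56-fold lower, and Pros1 had a log2 fold change of 3.59. The comparisons of 4OI share its libraries and are not independent.

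Other genes of the pathways were taken from lists made of genes outside the 38. Of 29 other coagulation and fibrinolysis genes 9 rose and 15 fell with 4OI, and 23 and 2 with the reference scaling. Procr, the endothelial receptor of protein C, was at 715, 673 and 703 CPM in 4OI, 18.8, 25.9 and 25.3 CPM in Bobcat339, and 6.38, 8.22 and 6.28 CPM in DMSO libraries. It was higher than in DMSO with both treatments (log2 6.65 with 4OI and 1.74 with Bobcat339). Thbd (thrombomodulin), which turns thrombin towards protein C, had log2 fold changes of 6.04 with 4OI and 0.94 with Bobcat339 (adjusted p = 0.00328). F8, known from endothelial cells, and Plau (urokinase) rose with 4OI, at log2 fold changes of 4.599 and 3.82. Proz, Serping1 (C1 inhibitor) and Hrg fell with 4OI, at -3.80, -4.07 and -3.94. Falls with 4OI smaller than the shift of 4.04 given above, here and in the lists that follow, do not keep their sign with the reference scaling. For Bobcat339 against DMSO that scaling moved the median of all genes by only 0.0778.

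With Bobcat339, 5 of these 29 rose and 5 fell. F3 (tissue factor, which starts coagulation) was at 11.98, 13.3 and 15.2 CPM in Bobcat339 and 26.5, 26.9 and 31.0 CPM in DMSO libraries (log2 -1.06). Plau and Thbs1 fell, at log2 fold changes of -1.26 and -0.66, while Serpinb2, Plaur (the urokinase receptor) and Mcfd2 rose by 2.67, 0.61 and 0.38.

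Of 29 other complement genes 26 were tested, and 17 rose and 8 fell with 4OI, or 22 and 1 with the reference scaling. Itgam and Itgb2, the chains of the complement receptor CR3 of myeloid cells, rose by 3.68 and 4.77 on the log2 scale, Cfp (properdin) by 3.64 and Fcna (ficolin A) by 4.40. Clu (clusterin), a fluid-phase inhibitor of the attack complex, C1rl and Mbl1 fell, at -5.01, -4.24 and -3.42. With Bobcat339 1 rose and 13 fell. C1qa, C1qb and C1qc, the chains of C1q made by macrophages, fell, at -3.32, -2.79 and -3.16, and so did Cfp, at -2.08, while 13 of 14 macrophage markers, which share 4 genes with this list, also fell. The gene called higher was Colec10, with 0.103, 0.178 and 0.139 CPM in Bobcat339 and no counts in DMSO libraries, at or about the floor, so no fold change is given.

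Of 24 transcription factors and signalling genes known to act on these genes in the liver, 8 rose and 14 fell with 4OI, or 13 and 6 with the reference scaling. Hnf4a was at 1.95, 2.36 and 3.38 CPM in 4OI, 81.8, 82.7 and 75.9 CPM in Bobcat339, and 152, 154 and 150 CPM in DMSO libraries. The groups did not overlap, with log2 fold changes of -5.88 with 4OI and -0.92 with Bobcat339 (adjusted p = 0.00124). The pioneer factors Foxa1 and Foxa2 and the acute phase factor Creb3l3 fell with 4OI, at -5.69, -6.61 and -3.59.

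Cebpa, the gene of a C/EBP factor, was at 129, 125 and 137 CPM in 4OI, 81.7, 76.6 and 65.5 CPM in Bobcat339, and 83.2, 86.4 and 67.8 CPM in DMSO libraries, higher with 4OI (log2 0.72) and not called with Bobcat339 (-0.09, adjusted p = 0.667). Cebpb rose with both (log2 1.12 with 4OI and 0.81 with Bobcat339). Stat3 was at 175, 168 and 179 CPM in 4OI, 358, 352 and 353 CPM in Bobcat339, and 203, 213 and 187 CPM in DMSO libraries, with log2 fold changes of -0.21 with 4OI (adjusted p = 0.0231) and 0.82 with Bobcat339. Nfkbia, Nfkb1, Socs3 and the IL-6 receptor gene Il6ra rose with 4OI, at 2.47, 1.04, 1.797 and 1.55. With Bobcat339 11 of the 24 rose and 1, Hnf4a, fell, with Cebpd, Il6ra and Il6st (the shared receptor chain gp130) higher by 2.31, 1.67 and 0.78.

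**Figure D5:**
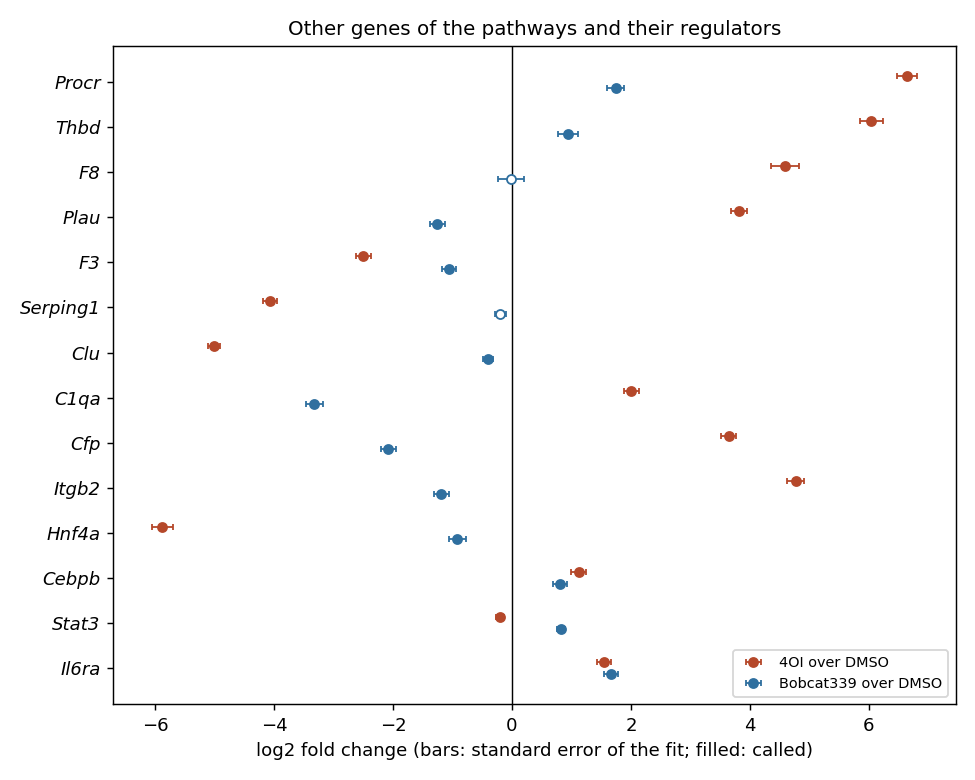
Log2 fold change over DMSO, with library scaling, of 14 other genes of the pathways and their regulators, 4OI in red and Bobcat339 in blue (bars, standard error of the fit; filled points, called). C1qa and Cfp lie above 0 with 4OI (2.01 and 3.64) and below 0 with Bobcat339 (-3.32 and -2.08), and Hnf4a lies below 0 with both.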

How the data were processed

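The authors deposited 1 table of expected counts (estimated read counts for each gene, written as whole numbers and not scaled between libraries). Of the values from 4 to 40, 43.7% to 45.6% per library were multiples of 4, against 27.0% if spread evenly, so about 4 deposited counts were taken as 1 read pair. Most of these values were not multiples of 4, so that ratio is an assumption. Per the submitters' processing notes, CASAVA 1.8, HISAT2 2.0.5 and featureCounts 1.5.0-p3 were used. Genome build, annotation and strand setting: not given in the sources used here. Symbols were matched by identifier for 52073 genes (91.9%).

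The main test was the quasi-likelihood test of edgeR 4.0.16, run in R 4.3.3 (TMM scaling, low counts removed by filterByExpr, 1 fit over all 9 libraries, two-sided, Benjamini-Hochberg over 18379 genes, called at an adjusted p under 0.05). The fit was tested on simulated data in which few genes were changed by known folds. That could not test the scaling where many genes differ, as with 4OI. Some genes of these lists are counted but not reported here. Single values were compared by exact permutation. The standard error of the fit is the size of the log2 fold change divided by the square root of the F statistic of the edgeR test. Intervals at 95% come from this standard error. These intervals and the floors cover counting error and the spread of these libraries only. Exon lengths and overlaps come from GENCODE vM21.

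The members and lists were chosen with earlier results of these data known. Values per library are given for the 6 called genes with the largest rise and fall in each comparison, those higher with 4OI, and Fgb, F2, Serpinc1, Plg, C3, Hc, Cfb and Vtn. Other lists give up to 4 called genes in each direction by adjusted p, and Hnf4a, Cebpa, Cebpb and Stat3. Others (such as C2, Masp1, Serpinf2, Cfi, F9, Thbd with Bobcat339 and the ratios) were picked after their values were seen. Alternatives were DESeq2 1.42.0, RLE scaling, library size only, scaling to 12 hepatocyte genes, no filter, at least 1 CPM in 3 libraries, only the 6 libraries compared, a replicate block, counts divided by 4, motifs on 1 strand, shares outside mitochondrial genes, and each library left out.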

Additional observations from a re-analysis of the deposited data

How the results depend on the processing

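With 4OI against DMSO or Bobcat339, 37 members stayed lower and 1 higher under every alternative except scaling to the hepatocyte reference list, which by construction sets the summed fall of 12 other hepatocyte genes to 0. It gave 18 higher and 4 lower against DMSO, 20 higher and 5 lower against Bobcat339 and 0 lower for Bobcat339 against DMSO. For 4OI, of 18367 genes tested, 16268 were higher and 471 lower against DMSO, and 16345 and 428 against Bobcat339, with this scaling. Log2 fold changes turned positive under it for 23 members in 4OI against DMSO, Fga 0.80, Fgb 1.18, Fgg 1.46, F7 0.54, F9 0.32, F10 0.41, F13b 0.86, Klkb1 1.64, Proc 0.16, Serpinc1 0.15, Serpind1 1.00, Plg 0.056, C1ra 0.68, Masp1 2.38, C2 3.16, Cfb 1.25, C4b 1.02, C6 1.29, C8a 0.59, C8b 0.12, C8g 1.02, C9 0.54 and Vtn 0.34. For 4OI against Bobcat339 24 members turned positive, among them C2 3.25, Masp1 2.61, Fgb 1.11, Serpinc1 0.16, Plg 0.080, Cfb 1.21 and Vtn 0.38, and for Bobcat339 against DMSO 12 did, all at 0.068 or less and none called, among them Fgb 0.068, C3 0.028 and Cfb 0.035.

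For Bobcat339 against DMSO the count of members called lower was 2, and became 4 with DESeq2, 3 with counts divided by 4, 0 with no filter, 1 with only the 6 libraries compared, and 0 to 2 when single libraries were left out (0 without Bobcat339 replicate 2 or 3 or DMSO replicate 1 or 2). Small uncalled values changed sign. Hc became -0.016 with DESeq2, -0.034 with RLE scaling, -0.00497 with library size only, and -0.14 to 0.20 with single libraries left out (below 0 without Bobcat339 replicate 3, DMSO replicate 1 or DMSO replicate 2). Over the same omissions Fgb ran from -0.089 to 0.13 (above 0 without Bobcat339 replicate 2 or DMSO replicate 3) and Cfb from -0.12 to 0.0071 (above 0 without Bobcat339 replicate 3). The cause was not tested.

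Replicate numbers were not taken to pair the samples, since no label says what they stand for. Over all genes tested, replicate 3 was highest in both Bobcat339 and DMSO for 24.5% and lowest in both for 23.0%. For replicate 1 these shares were 13.7% and 14.4%, and for replicate 2 they were 7.21% and 7.25%. Over all genes no same-numbered pair had a correlation of deviations above 0.1 (highest 0.0967), which does not settle whether the numbers pair samples. Over the 38 members alone these correlations were 0.723, 0.187 and 0.853 for numbers 1, 2 and 3 of Bobcat339 and DMSO. Unlike numbers gave 0.759 for Bobcat339 replicate 1 with DMSO replicate 2 and 0.355 for Bobcat339 replicate 2 with DMSO replicate 1. Pairs of replicate 3 with another number gave -0.829 to -0.282. Replicate 3 thus stood apart from replicates 1 and 2, and the members do not show a pairing by number. With a replicate block the count was 1 for Bobcat339 against DMSO (Proc, with Masp1 lost at an adjusted p of 0.051), Fgb was at 2.3e-05, and no other count of members called changed. Share differences kept their direction, from -1.86 to -1.74 percentage points for 4OI against DMSO. Mean levels in 4OI were under 5 CPM for 9 members (F5, F7, F9, F11, F13b, Klkb1, Serpind1, Masp2 and C6).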
